A study of Homo sapiens with 6 samples.

Results

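The WNT pathway genes described here are 49 genes, picked by name from the 57914 rows of the deposited count and TPM tables: WNT ligands, their receptors, the intracellular transducers, the nuclear factors, the inhibitors and the feedback targets. All 49 names were found, each in 1 row. RNA was measured in A375, an established human melanoma cell line, here 1 line grown in culture with no genetic change or drug named in the labels. Cells were stained with Aldefluor, which fluoresces once aldehyde dehydrogenase (ALDH) enzymes have acted on it, and a sorter took the brightest 5% (ALDH_High, 3 libraries) and the dimmest 5% (ALDH_Low, 3 libraries). Both groups passed through the same stain and sort, and no unsorted group is among the samples. The labels do not say whether the libraries of a group came from separate cultures, so the p-values measure only the spread between these libraries.

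WNT proteins are secreted ligands that bind frizzled receptors. Together with the co-receptors LRP5 and LRP6, they stop a destruction complex built on AXIN, APC and GSK3B from degrading β-catenin, which then joins TCF/LEF factors on DNA; other branches run through ROR and RYK receptors or planar polarity proteins and need no β-catenin. Secreted proteins of the DKK and SFRP families block the ligands or their co-receptors, and targets such as AXIN2, NKD1 and ZNRF3 feed back on the pathway. In the melanocyte lineage, WNT signals act in the neural crest and in melanocyte formation, and WNT5A is known from invasive melanoma cells.

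Total counts lay between 26692868 and 37830603 per library. ALDH1A3, the gene in the study's title, had 683, 1149 and 1088 CPM (counts scaled to library size with TMM factors) in the ALDH_High libraries, each time in the order 1 to 3, beside 345, 420 and 403 CPM in ALDH_Low. The second principal component, with 14.5% of the variance, set ALDH_High library 1 (49.1) apart from ALDH_High libraries 2 and 3 (-22.0 and -32.5). Where leaving that library out changed the call of any of the 49 genes, the value without it is also given. Other results are not all given without it. Of 8 melanoma markers, SOX10, S100B and S100A1 were higher in ALDH_High and MITF was lower. The pigment genes MLANA and TYR were at or under 3 counts in every library, PMEL did not pass and DCT was too low to test. The summed level of the 8 was 516 to 585 TPM (a transcript share corrected for gene length) in ALDH_High and 121 to 136 TPM in ALDH_Low. Most of this was SOX10, with a mean of 397 against 111 TPM, while MITF had 6.16 against 11.3 TPM. Markers of white blood cells were low, and CD3E and MS4A1 were at or under 3 counts everywhere. The summed level of the white blood cell list was 3.51 to 7.90 TPM in ALDH_High against 1.94 to 2.77 TPM in ALDH_Low. In that list LYZ was higher in ALDH_High (log2 fold change 1.65, adjusted p 0.0240) and CD14 lower (-1.96, adjusted p 0.0142). The 4 epithelial markers summed to 17.2 to 23.3 against 12.1 to 16.5 TPM; most of this was KRT14, which did not pass (adjusted p 0.108), while KRT5 was lower in ALDH_High (log2 fold change -3.63, adjusted p 0.000898). The 3 endothelial markers summed to at most 0.509 TPM. The part of these levels in the results was not tested. Because these are bulk samples, fewer cells expressing a gene and less RNA per cell cannot be told apart.

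Genes among the WNT receptors, ligands, nuclear factors and inhibitors differed between the sorted groups. No gene of the transducer group (7 tested), β-catenin included, passed the test, beside 20.6% of all genes called. A group of 7 is too small to be set apart by this count, and DVL1 and APC passed in some alternatives. The frizzled genes FZD1, FZD4, FZD7, FZD8 and FZD9, the co-receptor LRP6, the nuclear factors LEF1 and TCF7L1, the feedback gene NKD2, the inhibitor SFRP1 and the ligand WNT5B were higher in ALDH_High. The ligands WNT3, WNT5A and WNT7B, the receptors FZD6 and ROR1, and the inhibitor DKK1 were lower. Of the 49 genes, 39 were abundant enough for the test and 17 of these passed an adjusted p of 0.05 (edgeR quasi-likelihood F-test, Benjamini-Hochberg over all genes tested), beside 20.6% of the 17047 genes tested in all. By direction, 11 were higher, beside 10.8% of all genes, and 6 were lower, beside 9.83%. In 25 of the 39 the 2 groups did not overlap in CPM, beside 37.8% of all genes, and 13 had a log2 fold change of 1 or more in size, beside 11.5%. These counts cover only the tested genes: WNT5B, NKD1 and NKD2 passed the filter on low counts (0.316 CPM) in all libraries of ALDH_High alone, WNT7B in those of ALDH_Low alone and AXIN2 in neither whole group. Genes that enter through 1 group are picked in part for being high there, and 3 of these 5 were called. The genes were also chosen with earlier results of these data known, so the counts are no independent test of the pathway. The median log2 fold change was 0.20 over the 39 genes and -0.01 over all genes tested.

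**Figure D1:**
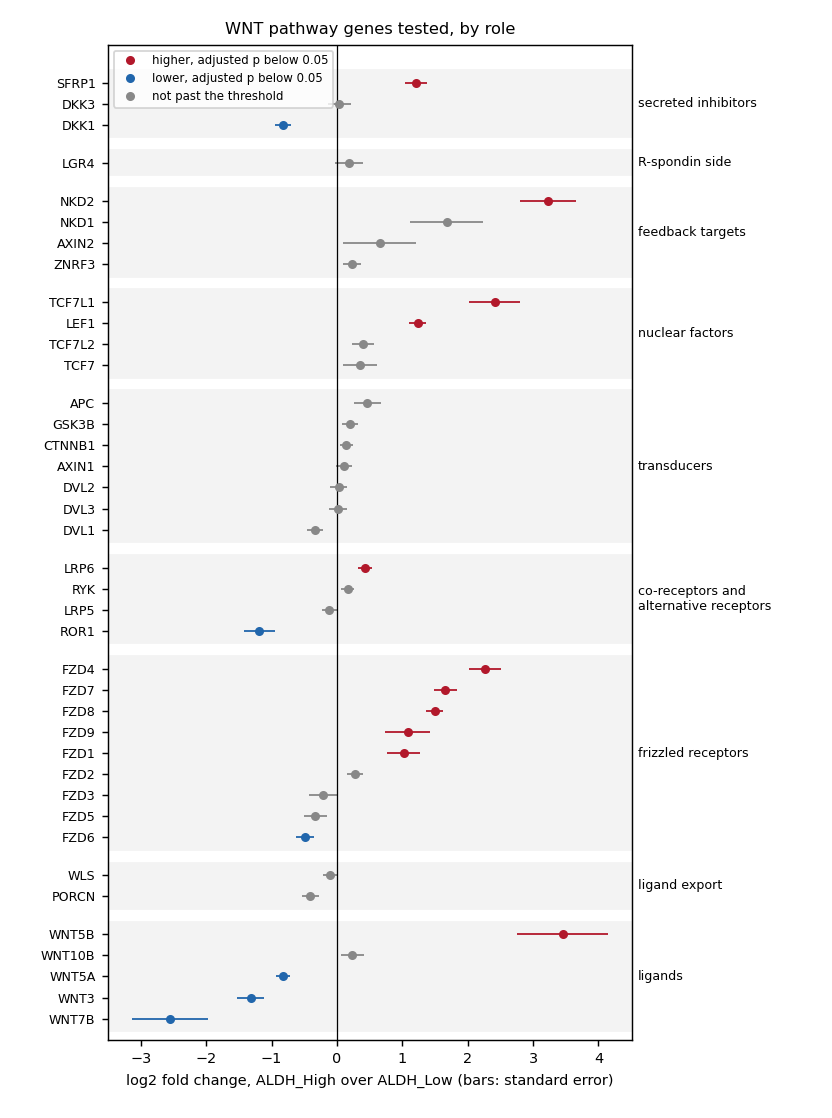
Log2 fold change of ALDH_High over ALDH_Low (horizontal axis) for the 39 WNT pathway genes tested, grouped by role, with bars for the standard error; red and blue points passed an adjusted p of 0.05. Points spread from -2.56 (WNT7B) to 3.45 (WNT5B), and all 7 transducers are grey, between -0.34 (DVL1) and 0.47 (APC).

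Sequence just before the start of transcription is shown for 3 genes picked by their values. FZD8 was the most abundant frizzled in ALDH_High. NKD2 had the highest log2 fold change of the feedback genes tested and was over the filter on low counts in ALDH_High alone. DKK1, an inhibitor known as a β-catenin target, fell. Each line gives the 250 bases before the start, from RefSeq on GRCh38.p14, in the direction of the gene, with matches to any of 3 motifs in capitals.
FZD8, chr10:35642297-35642546, minus strand: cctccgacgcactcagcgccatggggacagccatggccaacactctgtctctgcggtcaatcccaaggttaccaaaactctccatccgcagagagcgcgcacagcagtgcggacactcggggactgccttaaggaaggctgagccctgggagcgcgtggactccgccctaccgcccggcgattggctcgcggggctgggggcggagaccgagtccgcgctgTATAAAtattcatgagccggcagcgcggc
NKD2, chr5:1008552-1008801, plus strand: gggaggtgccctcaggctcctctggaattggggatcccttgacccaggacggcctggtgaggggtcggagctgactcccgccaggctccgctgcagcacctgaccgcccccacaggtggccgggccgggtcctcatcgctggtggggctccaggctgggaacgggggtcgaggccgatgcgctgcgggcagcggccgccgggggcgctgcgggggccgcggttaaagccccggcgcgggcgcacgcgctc
DKK1, chr10:52314031-52314280, plus strand: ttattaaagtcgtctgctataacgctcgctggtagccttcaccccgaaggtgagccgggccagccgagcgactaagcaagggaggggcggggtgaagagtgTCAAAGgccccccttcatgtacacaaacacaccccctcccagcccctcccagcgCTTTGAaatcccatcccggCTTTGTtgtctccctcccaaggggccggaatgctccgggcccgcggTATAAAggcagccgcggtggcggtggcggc
The motifs, searched on both strands, were CTTTGA, named here a TCF/LEF core, CTTTGT, named a SOX core, and the TATA box TATAAA. The first pair share their first 5 letters and cannot match at the same place. Which factors bind CTTTGA or CTTTGT was not tested, and the counts of CTTTGA do not stand for all TCF/LEF sites. With positions counted from the start, DKK1 held CTTTGA at -95 to -90 and its reverse complement TCAAAG at -149 to -144, as well as CTTTGT at -76 to -71 and TATAAA at -30 to -25. FZD8 held only TATAAA, at -29 to -24, and NKD2 held none of the 3. The table gave 42 windows for 33 of the 49 genes; CTTTGA was in 2 of the 42 (DKK1 and PORCN) beside 11.2% of all 35116 windows, CTTTGT in 7 beside 13.7%, and TATAAA in 4 beside 10.7%. The letters G and C made up a median of 66.6% of the 42 windows and 58.0% of all windows. The part of this in the motif counts was not tested. None of the 9 windows of genes that rose held CTTTGA, and 1 of the 5 windows of genes that fell did. CTTTGT was in 1 of the 9 and in 1 of the 5. A match describes letters only, and its absence says nothing beyond this window.

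Among the ligands, WNT5A was the most abundant per length and fell. WNT5A, which signals mainly through ROR receptors without β-catenin, had 28.9, 28.0 and 29.6 CPM in ALDH_High libraries 1 to 3 and 52.5, 51.0 and 49.5 CPM in ALDH_Low. The libraries of each group lay close together and the groups were far apart (28.9 ± 0.770 against 51.0 ± 1.54 CPM as mean ± SD, n = 3; log2 fold change -0.82 with SE 0.11, adjusted p 0.000487). WNT3, a ligand of the β-catenin branch, had 3.04, 2.72 and 2.90 CPM in ALDH_High and 7.99, 7.39 and 6.25 CPM in ALDH_Low. The lowest ALDH_Low value of WNT3 was still above the highest ALDH_High value by a wide margin (log2 fold change -1.32 with SE 0.20, adjusted p 0.00123). WNT7B, which also acts through β-catenin in many tissues, was scarce, with 0.789, 0.318 and 0.0879 CPM in ALDH_High and 1.97, 3.11 and 1.69 CPM in ALDH_Low. Its ALDH_High libraries spread widely but stayed under every ALDH_Low library (log2 fold change -2.56 with SE 0.58, adjusted p 0.0112). WNT7B was over the filter on low counts in all libraries of ALDH_Low alone, so it was picked in part for being high there. With ALDH_High library 1 left out the log2 fold change of WNT7B was -3.43, and with ALDH_High library 2 left out it was -2.41 and missed the threshold (adjusted p 0.0506).

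WNT5B, a close relative of WNT5A, went the other way. Its counts were 22, 40 and 31 in ALDH_High and 0, 2 and 6 in ALDH_Low, or 0.868, 1.16 and 0.909 CPM against 0, 0.0669 and 0.216 CPM. The groups did not overlap, and ALDH_Low held almost none of the transcript (log2 fold change 3.45 with SE 0.70, adjusted p 0.00620). WNT5B was over the filter on low counts in all libraries of ALDH_High alone, so it was picked in part for being high there. With so few ALDH_Low counts the size is uncertain: WNT5B had a log2 fold change of 2.79 without ALDH_Low library 1 and 4.87 without ALDH_Low library 3. WNT10B, a β-catenin ligand, did not pass, with 9.50 to 12.4 CPM in ALDH_High and 8.51 to 10.3 CPM in ALDH_Low (log2 fold change 0.24 with SE 0.17, adjusted p 0.388). WNT11 had 8, 7 and 5 counts in ALDH_High and 3, 3 and 1 in ALDH_Low and was too low to test; the ratio of its summed counts, scaled to library size, was 2.93 (95% exact interval 1.19 to 8.19, counting error only). WNT4 had at most 1 count in any library.

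Per length, the 7 ligands together summed to 18.4, 20.5 and 19.3 TPM in ALDH_High and to 27.3, 28.2 and 24.7 TPM in ALDH_Low. Every ALDH_High library was lower (exact two-sided permutation p = 0.1, the lowest value this design of 3 and 3 allows, as in every such test below). WNT5A made up 51.2 ± 3.66% of that sum in ALDH_High and 63.4 ± 2.01% in ALDH_Low (SD, n = 3), and WNT10B 36.3 ± 3.36% against 21.6 ± 1.93%. WNT3 followed with 6.46 ± 0.486% against 11.3 ± 1.15%, and WNT5B held 4.21 ± 0.588% in ALDH_High. Among these 7, the order of levels was thus WNT5A, WNT10B and WNT3 in both groups, and the groups did not overlap in any of these shares (exact permutation p = 0.1 for each). WNT9A, which is not among the 7, had 1.64 ± 0.335 TPM in ALDH_High and 2.52 ± 0.474 TPM in ALDH_Low (SD, n = 3). WNT3 had 1.25 ± 0.0610 and 3.02 ± 0.464 TPM. In ALDH_High the mean of WNT3 was below that of WNT9A, but the libraries overlapped. In ALDH_High library 3 WNT3 was the higher of the pair, with 1.32 against 1.27 TPM. The share of a gene can move because others in the sum do, as for WNT10B, whose own level did not pass the test.

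Neither gene of ligand export passed. PORCN, the acyltransferase that adds the lipid WNT proteins need, had 14.8, 14.7 and 13.7 CPM in ALDH_High and 19.9, 19.7 and 17.6 CPM in ALDH_Low. The groups did not overlap, but PORCN lay just outside the threshold (log2 fold change -0.41 with SE 0.13, adjusted p 0.0536) and passed with upper-quartile scaling (adjusted p 0.0326). WLS, the carrier that takes WNT proteins to the cell surface, had 70.5 to 82.9 CPM in ALDH_High and 78.6 to 82.1 CPM in ALDH_Low (log2 fold change -0.11 with SE 0.11, adjusted p 0.565).

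Of the 10 frizzled receptors, 9 were tested, 5 rose and 1 fell, beside 10.8% and 9.83% of all genes. FZD8 had 88.9, 66.5 and 70.8 CPM in ALDH_High libraries 1 to 3 and 26.8, 26.3 and 27.1 CPM in ALDH_Low. The ALDH_Low libraries were nearly equal and all ALDH_High libraries stood far above them (75.4 ± 11.9 against 26.7 ± 0.441 CPM as mean ± SD, n = 3; log2 fold change 1.5 with SE 0.13, adjusted p 4.71e-05). FZD7, a receptor linked with stem cells in several tissues, had 52.3, 33.6 and 37.6 CPM in ALDH_High and 12.3, 12.5 and 14.3 CPM in ALDH_Low. It too was separated in every library (log2 fold change 1.66 with SE 0.18, adjusted p 0.000142). FZD1 had 85.7, 45.5 and 42.9 CPM in ALDH_High and 34.3, 25.7 and 25.5 CPM in ALDH_Low (log2 fold change 1.02 with SE 0.25, adjusted p 0.0167). ALDH_High library 1 was by far the highest for FZD1, and without it the log2 fold change of FZD1 was 0.65 (adjusted p 0.0138). FZD1 missed the threshold without ALDH_Low library 2 (0.95, adjusted p 0.0674) or ALDH_Low library 3 (0.95, adjusted p 0.0818).

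FZD4, which besides WNT ligands binds norrin in retinal vessels, had the highest frizzled log2 fold change. It had 27.9, 50.1 and 54.6 CPM in ALDH_High and 8.69, 7.93 and 11.0 CPM in ALDH_Low (log2 fold change 2.27 with SE 0.25, adjusted p 0.000154). ALDH_High library 1 was the lowest of its group here, and without it the value was 2.53 (adjusted p 1.74e-05). The exons of FZD4 share 1399 bases with PRSS23 on the opposite strand in GENCODE 44, and PRSS23 was far more abundant and moved the same way, with 238 ± 28.6 TPM in ALDH_High and 96.5 ± 16.1 TPM in ALDH_Low (SD, n = 3; log2 fold change 1.25). The libraries are stranded, but no source used here says that the counting used strand, so the level of FZD4 is uncertain and the part of PRSS23 in it was not tested. FZD9 was scarce, at 3.83, 2.49 and 1.91 CPM in ALDH_High and 1.53, 0.903 and 1.40 CPM in ALDH_Low. The groups did not overlap but the call was borderline (log2 fold change 1.09 with SE 0.34, adjusted p 0.0496). When single libraries were left out, FZD9 kept the call only without ALDH_High library 3; it was lost without ALDH_High library 1 (0.79, adjusted p 0.108) or library 2 (1.17, 0.0881), and without ALDH_Low library 1 (1.26, 0.0699), library 2 (0.89, 0.159) or library 3 (1.15, 0.112).

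FZD6, which can act against β-catenin signals and in planar polarity, was the frizzled that fell. It had 26.6, 28.8 and 29.7 CPM in ALDH_High and 40.5, 45.5 and 33.0 CPM in ALDH_Low (log2 fold change -0.48 with SE 0.14, adjusted p 0.0338). All ALDH_High values were lower, yet with single libraries left out FZD6 passed only without ALDH_Low library 3. It missed the threshold without ALDH_High library 1 (-0.42, adjusted p 0.0674), library 2 (-0.48, 0.105) or library 3 (-0.50, 0.0754), and without ALDH_Low library 1 (-0.46, 0.109) or library 2 (-0.38, 0.146). It also missed it in all 3 limma settings on TPM (adjusted p 0.15 to 0.264). FZD2, FZD3 and FZD5 did not pass, with log2 fold changes of 0.28, -0.21 and -0.33 and adjusted p of 0.168, 0.572 and 0.237. FZD10 had 0 counts in every library, which allows up to 3 counts per library, or 0.0778 to 0.118 CPM, in counting error alone.

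Summed per length, the frizzled receptors reached 129, 113 and 119 TPM in ALDH_High and 75.5, 74.4 and 64.1 TPM in ALDH_Low. The lowest ALDH_High library was well above the highest ALDH_Low library (exact permutation p = 0.1). In ALDH_High, FZD8 led with 34.7 ± 3.28 TPM, ahead of FZD2 with 24.7 ± 1.10 TPM (SD, n = 3). Next came FZD7, FZD1 and FZD6 at 16.5 ± 2.87, 15.5 ± 5.24 and 14.6 ± 1.74 TPM, which did not differ beyond their spread. In ALDH_Low, FZD2 and FZD6 led together, with 19.8 ± 1.96 and 19.7 ± 3.70 TPM, ahead of FZD8 with 11.9 ± 0.273, FZD1 with 7.47 ± 1.47 and FZD7 with 5.09 ± 0.236 TPM. As a share of the sum, FZD8 held 28.8 ± 0.785% in ALDH_High and 16.8 ± 1.19% in ALDH_Low, FZD7 13.6 ± 1.44% against 7.19 ± 1.02%, and FZD4 7.06 ± 2.89% against 2.34 ± 0.539%. The share of FZD6 went from 27.5 ± 3.22% in ALDH_Low to 12.2 ± 2.09% in ALDH_High, and that of FZD2 from 27.8 ± 0.687% to 20.6 ± 1.21%. None of these 5 shares overlapped between the groups (exact permutation p = 0.1 for each), while that of FZD1 did (12.7 ± 3.45% against 10.4 ± 1.51%, exact permutation p = 0.4).

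**Figure D2:**
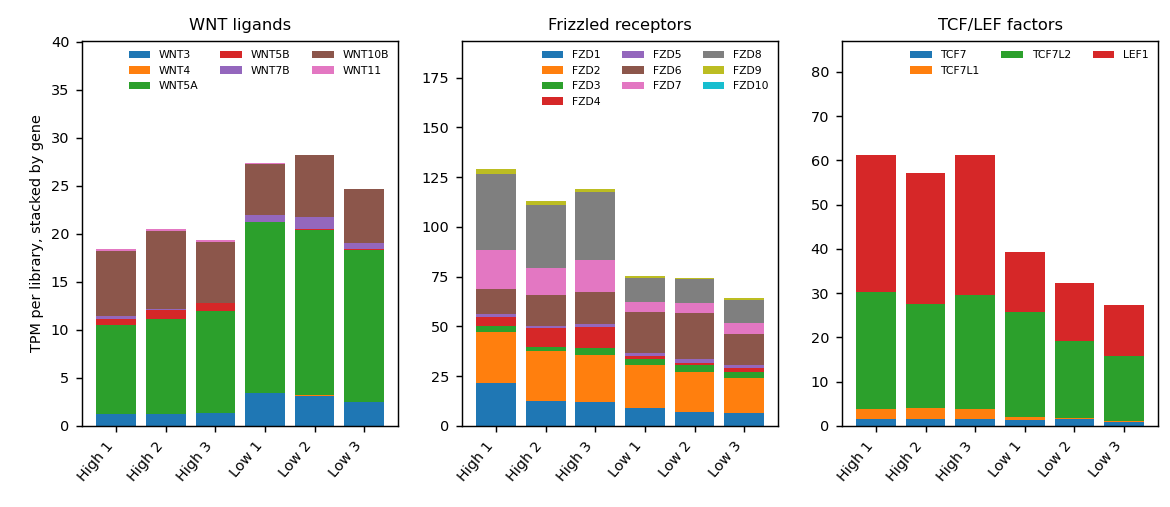
TPM per library (vertical axes, each from 0), stacked by gene, for the 7 WNT ligands, the 10 frizzled receptors and the 4 TCF/LEF factors. The frizzled sum lies between 113 and 129 TPM in ALDH_High and between 64.1 and 75.5 TPM in ALDH_Low, and the ligand sum is lower in all ALDH_High libraries.

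Of the co-receptors of the β-catenin branch, LRP6 rose. It had 62.6, 53.2 and 55.4 CPM in ALDH_High and 42.4, 43.6 and 41.0 CPM in ALDH_Low. All ALDH_High libraries were higher by a small margin (log2 fold change 0.43 with SE 0.11, adjusted p 0.0220). LRP6 missed the threshold without ALDH_Low library 1 (0.45, adjusted p 0.0638), library 2 (0.45, 0.0651) or library 3 (0.41, 0.0749). LRP5, its relative, overlapped between the groups, at 68.9 to 81.0 CPM against 76.2 to 85.3 CPM (log2 fold change -0.12 with SE 0.11, adjusted p 0.527). Per length LRP5 was the more abundant of the pair in both groups, with 28.2 ± 0.869 TPM against 12.9 ± 0.473 TPM for LRP6 in ALDH_High and 29.5 ± 1.86 against 9.29 ± 0.578 TPM in ALDH_Low (SD, n = 3).

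ROR1 and ROR2 are tyrosine kinase-like receptors that bind WNT5A, and only ROR1 was high enough to test. ROR1 had 5.17, 4.43 and 5.04 CPM in ALDH_High and 15.1, 9.84 and 8.27 CPM in ALDH_Low. Every ALDH_Low library was above every ALDH_High library, library 1 most of all (log2 fold change -1.19 with SE 0.24, adjusted p 0.00600). ROR1 did not pass in limma on TPM (adjusted p 0.0520 to 0.146 over the 3 limma settings). ROR2 had 28, 6 and 22 counts in ALDH_High and 1, 0 and 0 in ALDH_Low, too few for the filter. The ratio of its summed counts, scaled to library size, was 57.3 (95% exact interval 9.88 to 2305, counting error only), and ROR2 passed in the fit without a filter (adjusted p 5.47e-08) and in DESeq2 (adjusted p 0.000780) but not in limma on log2(TPM + 1) (adjusted p 0.157). RYK, another kind of WNT receptor, had 87.5 to 93.1 CPM in ALDH_High and 77.7 to 83.1 CPM in ALDH_Low and did not pass (log2 fold change 0.16 with SE 0.10, adjusted p 0.307). Per length RYK (61.0 ± 5.68 TPM in ALDH_High) was far more abundant than ROR1 (1.56 ± 0.124 TPM) or ROR2 (0.290 TPM).

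**Figure D3:**
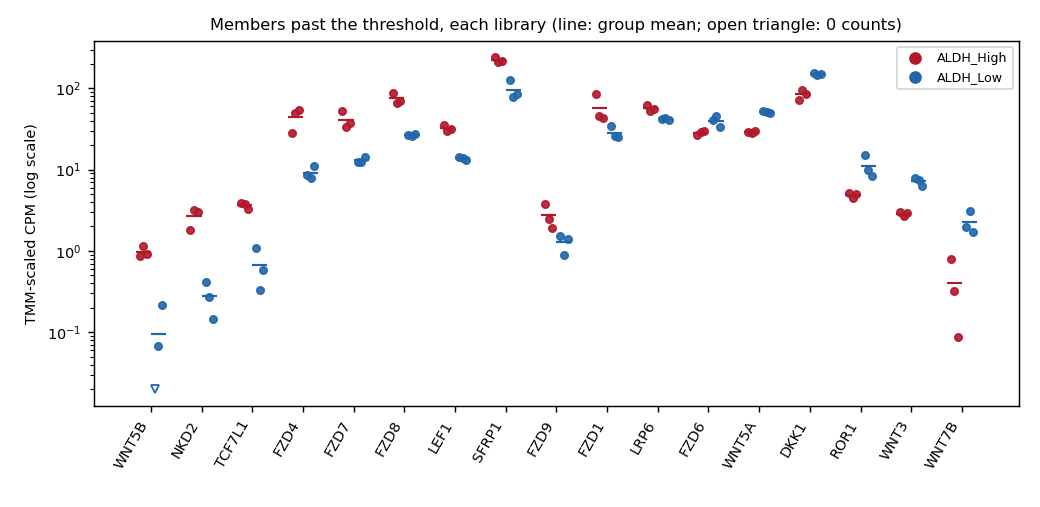
TMM-scaled CPM on a log axis for the 17 WNT pathway genes past the threshold, 1 point per library, with a line at the mean of each group (ALDH_High red, ALDH_Low blue) and an open triangle, drawn at the lower edge, for 0 counts. In each gene the red and blue points do not overlap; ALDH_High library 1 is the leftmost red point and stands high for FZD1 (85.7 CPM) and low for FZD4 (27.9 CPM).

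None of the 7 transducers passed, beside 20.6% of all genes called. CTNNB1, which encodes β-catenin, had 418, 378 and 415 CPM in ALDH_High and 368, 388 and 339 CPM in ALDH_Low. The groups overlapped (404 ± 22.3 against 365 ± 24.9 CPM as mean ± SD, n = 3; log2 fold change 0.15 with SE 0.11, adjusted p 0.388), and over 15 alternatives the log2 fold change of CTNNB1 stayed between 0.09 and 0.21. Protein, where β-catenin is mostly controlled, was not measured. The destruction complex genes AXIN1, the scaffold, and GSK3B, the kinase, had log2 fold changes of 0.11 and 0.20 (adjusted p 0.579 and 0.304). DVL2 and DVL3, which relay the signal from frizzled receptors, had log2 fold changes of 0.02 each (adjusted p 0.927 and 0.946), with a sign that changed under upper-quartile scaling. DVL1 had 101 to 131 CPM in ALDH_High and 136 to 156 CPM in ALDH_Low, with no overlap, and did not pass (log2 fold change -0.34 with SE 0.12, adjusted p 0.0789); it did without ALDH_High library 1 (-0.42, adjusted p 0.0221) and with upper-quartile factors (adjusted p 0.0429). APC, the tumour suppressor of the complex, had 28.0, 50.5 and 46.8 CPM in ALDH_High and 33.2, 30.9 and 26.7 CPM in ALDH_Low. Only ALDH_High library 1 lay among the ALDH_Low values, and APC did not pass with all 6 libraries (log2 fold change 0.47 with SE 0.20, adjusted p 0.144). APC passed without that library (0.70, adjusted p 0.00407) and, with all 6 libraries, without a filter (adjusted p 0.0166).

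Of the 4 TCF/LEF factors, the DNA-binding partners of β-catenin, LEF1 and TCF7L1 rose, beside 10.8% of all genes. LEF1 had 35.1, 30.3 and 31.6 CPM in ALDH_High and 14.3, 13.9 and 13 CPM in ALDH_Low. The libraries within each group were alike and the groups lay far apart (32.3 ± 2.52 against 13.7 ± 0.642 CPM as mean ± SD, n = 3; log2 fold change 1.24 with SE 0.13, adjusted p 0.000113). TCF7L1, which acts mostly as a repressor and is known from stem cells, had 3.9, 3.73 and 3.28 CPM in ALDH_High and 1.09, 0.335 and 0.575 CPM in ALDH_Low. Every ALDH_High library was above every ALDH_Low library (log2 fold change 2.41 with SE 0.39, adjusted p 0.00168), and without ALDH_Low library 1, the highest of its group, the value for TCF7L1 was 3.01. TCF7L2 had 60.1, 48.5 and 51.9 CPM in ALDH_High and 51.1, 37.5 and 33.2 CPM in ALDH_Low, with ALDH_Low library 1 inside the ALDH_High range. TCF7L2 did not pass with all 6 libraries (log2 fold change 0.40 with SE 0.17, adjusted p 0.132) and did without that library (0.61, adjusted p 0.0271). With all 6 libraries it passed with a block for replicate number (0.42, adjusted p 0.0480) and without a filter (adjusted p 0.0416). TCF7 had 3.27, 3.01 and 2.96 CPM in ALDH_High and 2.52, 2.94 and 1.76 CPM in ALDH_Low (log2 fold change 0.35 with SE 0.26, adjusted p 0.401). TCF7 is uncertain, since its exons share 210 bases with the abundant gene SKP1 on the opposite strand.

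Per length, the 4 factors summed to 61.3, 57.2 and 61.3 TPM in ALDH_High and to 39.2, 32.3 and 27.3 TPM in ALDH_Low, with no overlap (exact permutation p = 0.1). LEF1 led in ALDH_High, with 51.3 ± 0.617% of the sum against 42.3 ± 0.928% for TCF7L2 (SD, n = 3). In ALDH_Low the order was turned, with 56.3 ± 4.06% for TCF7L2 and 38.9 ± 4.20% for LEF1. TCF7L1 held 3.78 ± 0.346% in ALDH_High and 1.18 ± 0.528% in ALDH_Low. None of these 3 shares overlapped between the groups (exact permutation p = 0.1 for each).

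Of the 7 feedback targets, 4 were tested and NKD2 passed, beside 20.6% of all genes called. NKD1 and NKD2 were over the filter on low counts in all libraries of ALDH_High alone, so both were picked in part for being high there. NKD2, a protein that binds Dishevelled and dampens the signal, had 46, 111 and 103 counts in ALDH_High and 16, 8 and 4 in ALDH_Low, or 1.81, 3.21 and 3.02 against 0.415, 0.268 and 0.144 CPM. Even the lowest ALDH_High library was well above all ALDH_Low libraries (log2 fold change 3.23 with SE 0.42, adjusted p 0.000494). NKD1, its relative, had 33, 98 and 96 counts in ALDH_High and 55, 13 and 7 in ALDH_Low, or 1.30, 2.84 and 2.81 against 1.43, 0.435 and 0.252 CPM. The libraries numbered 1 of both groups lay side by side, and NKD1 did not pass (log2 fold change 1.68 with SE 0.56, adjusted p 0.0615). Without ALDH_High library 1 the value for NKD1 was 1.96 (adjusted p 0.0341), and without ALDH_Low library 1 it was 2.75 (adjusted p 0.00719). With all 6 libraries NKD1 passed without a filter (adjusted p 0.000181) and in DESeq2 (adjusted p 0.0156). AXIN2, the most widely used readout of β-catenin activity, was near the lower limit of detection, with 14, 20 and 5 counts in ALDH_High and 13, 8 and 5 in ALDH_Low. Its groups overlapped (log2 fold change 0.66 with SE 0.56, adjusted p 0.470), with few counts behind them. ZNRF3, a ligase that removes frizzled receptors from the surface, had 14.6 to 15.9 CPM in ALDH_High and 11.8 to 14.4 CPM in ALDH_Low (log2 fold change 0.23 with SE 0.14, adjusted p 0.313). Its partner RNF43 had at most 5 counts in any library, NOTUM, which strips the lipid from WNT proteins, at most 7, and LGR5, an R-spondin receptor of stem cells, at most 27, and none of the 3 was tested. LGR5 had 2, 10 and 11 counts in ALDH_High and 10, 6 and 27 in ALDH_Low, and the ratio of its summed counts, scaled to library size, was 0.548 (95% exact interval 0.315 to 0.929, counting error only). The libraries of LGR5 overlapped, and it passed in no alternative that tested it.

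On the R-spondin side, LGR4, a receptor that holds ZNRF3 and RNF43 in check, had 8.16 to 12.3 CPM in ALDH_High and 6.79 to 10.2 CPM in ALDH_Low and did not pass (log2 fold change 0.19 with SE 0.22, adjusted p 0.606). The ligand RSPO3 had at most 4 counts in any library.

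The secreted inhibitors SFRP1 and DKK1 changed in opposite directions. SFRP1, which binds WNT proteins outside the cell, had 242, 211 and 220 CPM in ALDH_High and 126, 79.5 and 85.2 CPM in ALDH_Low. No library of SFRP1 overlapped with the other group (224 ± 16.1 against 96.8 ± 25.1 CPM as mean ± SD, n = 3; log2 fold change 1.21 with SE 0.17, adjusted p 0.000724). DKK1, which blocks LRP5 and LRP6, had 71.9, 96 and 85.6 CPM in ALDH_High and 154, 147 and 150 CPM in ALDH_Low. ALDH_Low libraries of DKK1 were nearly equal and all higher (84.5 ± 12.1 against 150.1 ± 3.26 CPM as mean ± SD, n = 3; log2 fold change -0.83 with SE 0.12, adjusted p 0.00109). Per length DKK1 was the more abundant of the pair in both groups, at 128 ± 24.7 TPM in ALDH_High and 218 ± 9.26 TPM in ALDH_Low, beside 72.9 ± 2.35 and 30.5 ± 8.43 TPM for SFRP1 (SD, n = 3). DKK3 overlapped (7.65 to 9 against 7.29 to 9.03 CPM; log2 fold change 0.04 with SE 0.17, adjusted p 0.914, and below 0 under upper-quartile scaling) and is uncertain, since its exons share 5681 bases with USP47 on the opposite strand. SFRP4 had at most 2 counts in any library and WIF1 had 0 in all 6, which allows up to 3 counts per library.

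Another 93 genes of the pathway were listed by role, and 63 of them were tested: 18 were higher and 7 lower in ALDH_High, beside 10.8% and 9.83% of all genes tested. The list was made with earlier results of these data known. These counts, and those by role below, are therefore no independent test of the pathway. Of the 63, DACT1, TLE2 and WNT2B passed the filter on low counts in all libraries of ALDH_High alone, LGR6 in those of ALDH_Low alone and CXXC4 in neither whole group; 3 of these 5 were called, namely DACT1, TLE2 and LGR6, each through the group where it is high. Of the 12 other WNT ligands only WNT2B and WNT9A were abundant enough for the test, and neither passed (log2 fold change 0.20 and -0.66). KREMEN1 and KREMEN2, receptors through which DKK1 acts on LRP6, rose. KREMEN1 had 7.14, 7.29 and 5.66 CPM in ALDH_High and 2.13, 2.34 and 2.55 CPM in ALDH_Low (log2 fold change 1.52 with SE 0.22, adjusted p 0.000812). KREMEN2 had a log2 fold change of 1.13 (adjusted p 0.0297). KREMEN2 missed the threshold without ALDH_High library 1 (0.95, adjusted p 0.0585) or library 2 (1.17, 0.0712), and without ALDH_Low library 2 (1.07, 0.0965) or library 3 (0.996, 0.107). LGR6, an R-spondin receptor, fell from 3.45, 1.10 and 2.37 CPM in ALDH_Low to 0.316, 0.0289 and 0.176 CPM in ALDH_High (log2 fold change -3.79 with SE 0.64, adjusted p 0.00226, over the filter in ALDH_Low alone; -4.44 without ALDH_High library 1). All 3 tested genes among the other inhibitors changed, beside 20.6% of all genes called. SERPINF1, a secreted serpin that can bind LRP6, had a log2 fold change of 3.09 (adjusted p 3.13e-05), and the WNT-cleaving proteases TRABD2A and TRABD2B moved in opposite directions, at -1.72 (adjusted p 0.00103) and 1.99 (adjusted p 0.0165). TRABD2B was 2.99 without ALDH_Low library 1 and missed the threshold without ALDH_High library 2 (1.75, adjusted p 0.0594), ALDH_Low library 2 (1.70, 0.0600) or ALDH_Low library 3 (1.65, 0.0640).

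Of 18 tested genes of the destruction complex and its regulators, 2 rose (11.1%, near the 10.8% of all genes), both of the Dishevelled-binding DACT family: DACT1 (log2 fold change 2.59, adjusted p 0.00154; over the filter in ALDH_High alone) and DACT3 (1.82, adjusted p 0.00217). Casein kinase genes and GSK3A were among the 16 that did not pass. Of 17 genes listed as nuclear cofactors, 6 rose and 1 fell, beside 10.8% and 9.83% of all genes. The 6 include CTNNBL1, whose part in the pathway was not tested. BCL9, a coactivator that binds β-catenin, had 67.9, 53.4 and 67.0 CPM in ALDH_High and 30.9, 28.9 and 23.7 CPM in ALDH_Low (log2 fold change 1.17, adjusted p 0.000356), while its relative BCL9L was lower (-0.71, adjusted p 0.00967; without ALDH_High library 2, -0.61 and 0.0550). CTNNBIP1, which keeps β-catenin from TCF factors, had 59.0, 38.7 and 34.9 CPM against 16, 11.4 and 16.5 CPM (log2 fold change 1.60, adjusted p 0.000642). The corepressor TLE2 (2.13, adjusted p 0.00944; 3.02 without ALDH_Low library 1; over the filter in ALDH_High alone), its relative TLE3 (0.95, adjusted p 0.00158) and the TCF7L2 kinase TNIK (1.35, adjusted p 0.0117; without ALDH_Low library 3, 1.24 and 0.0614) rose too. CTNNBL1 (0.34, adjusted p 0.0429) kept its call with single libraries left out only without ALDH_High library 1 and lost it without ALDH_High library 2 (0.36, adjusted p 0.105) or library 3 (0.36, 0.0850) and without ALDH_Low library 1 (0.36, 0.0995), library 2 (0.29, 0.167) or library 3 (0.38, 0.0655). With all 6 libraries CTNNBL1 also lost it with a block for replicate number (adjusted p 0.0694), with upper-quartile factors (0.0783) and without a filter (0.0842).

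Planar cell polarity genes, which act downstream of WNT signals without β-catenin, moved in both directions, 3 up and 3 down of 12 tested, beside 20.6% of all genes called. The formin DAAM2 rose from 5.73, 6.59 and 6.90 CPM to 22.7, 24.9 and 26.2 CPM (log2 fold change 1.94, adjusted p 1.99e-05), while its relative DAAM1 fell from 9.49, 8.6 and 9.45 CPM to 3.08, 3.70 and 3.81 CPM (-1.38, adjusted p 0.000628). PRICKLE2 (1.51, adjusted p 0.00742) and VANGL2 (2.18, adjusted p 0.00480; 3.04 without ALDH_Low library 1) rose, and PRICKLE1 (-0.76, adjusted p 0.00547) and CELSR3 (-0.88, adjusted p 0.00158) fell. Of 7 tested genes among the other known targets, 3 rose and 1 fell, beside 10.8% and 9.83% of all genes. TNFRSF19, a receptor of the TNF family, had 43.2, 21.4 and 27.7 CPM in ALDH_High and 3.19, 1.94 and 4.82 CPM in ALDH_Low (log2 fold change 3.21, adjusted p 0.000140). BAMBI, a decoy receptor of TGF-β signalling, had 76.3, 39.4 and 52.5 CPM against 10.7, 6.32 and 11.5 CPM (log2 fold change 2.56, adjusted p 0.000153). CCND1, cyclin D1, was higher (0.79, adjusted p 0.0160) and MYC lower (-0.86, adjusted p 0.00374). CCND1 missed the threshold without ALDH_High library 2 (0.64, adjusted p 0.0626) and without ALDH_Low library 1 (0.77, 0.0559) or library 3 (0.74, 0.0761). BCL9L, CTNNBL1, TLE3, PRICKLE1, CELSR3, MYC and CCND1 have an absolute log2 fold change under 1 and were named after their values were seen.

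**Figure D4:**
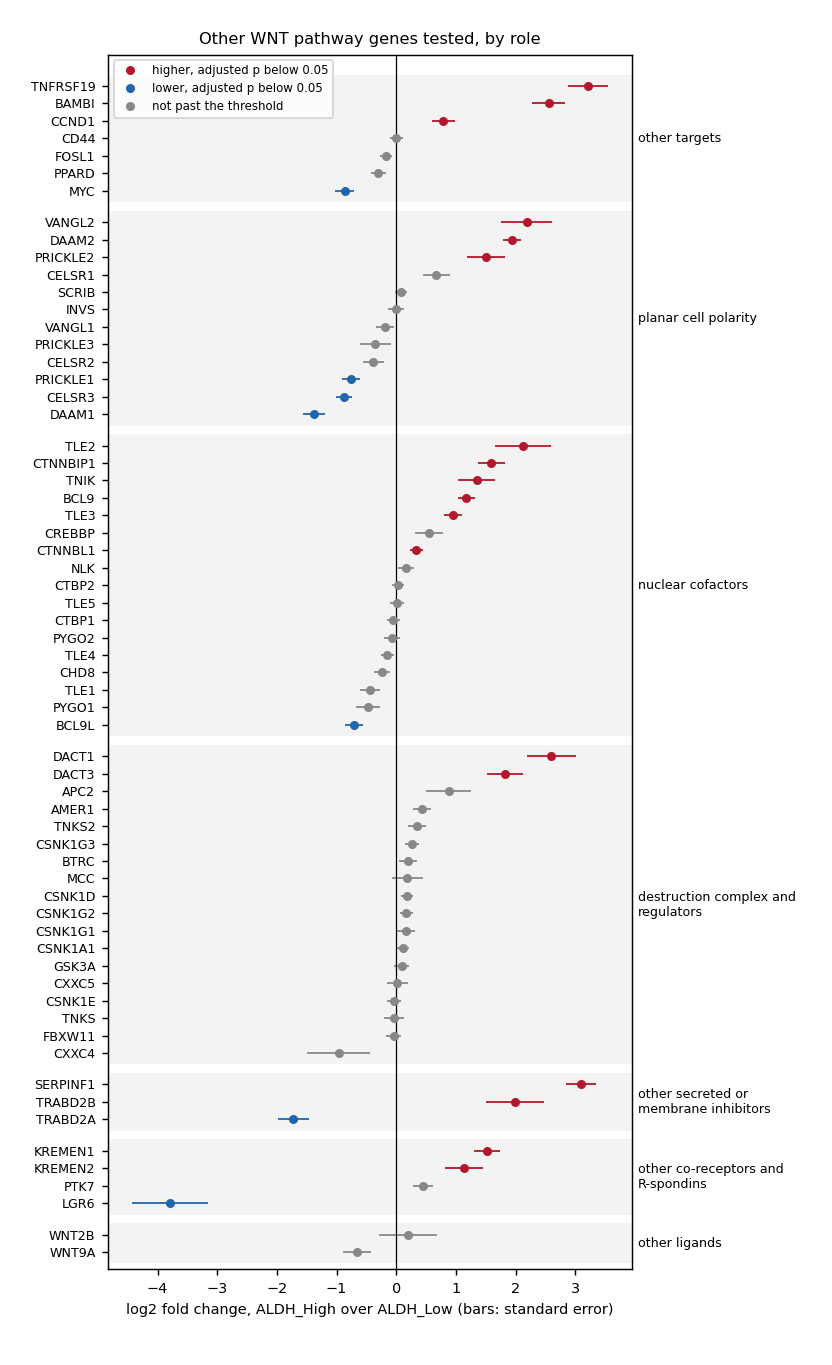
Log2 fold change of ALDH_High over ALDH_Low (horizontal axis) with its standard error for the 63 other WNT pathway genes tested, grouped by role; red and blue points passed an adjusted p of 0.05. In the destruction complex group only DACT1 (2.59) and DACT3 (1.82) are coloured, and LGR6 (-3.79) lies farthest to the left.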

How the data were processed

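RNA-seq of 6 libraries of A375 cells was used. The authors deposited a table of counts per gene and a table of TPM values. In each library 133 to 177 genes had a count of 0 beside a TPM above 0, so the deposited counts are taken as estimated counts rounded to whole numbers. The tests had been planned for counts and were kept. Rows with an identifier but no gene name held 0.0213 to 0.0267% of the counts and stayed in the fit. Per the submitters' processing notes, FastQC 0.11.3, STAR 2.5.1b, HTSeq 0.6.1, DESeq2 and GRCh38 were used, with no role given; the annotation release and the use of strand in counting are not given in the sources used here. Per the labels' protocols, libraries were made with a stranded mRNA kit.

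Low genes were removed with filterByExpr, libraries were put on one scale by TMM, and edgeR 4.0.16 gave the test (R 4.3.3; glmQLFit and glmQLFTest, two-sided) on the whole table of 57914 genes, without a replicate term; 17047 genes were tested. P-values were adjusted by Benjamini-Hochberg over all of them, with a threshold of 0.05. The SE of each log2 fold change was derived from its F statistic. The test was checked on simulated counts with the same dispersion for every gene and changes planted only in the more abundant genes. That check does not cover scarce genes such as WNT5B, WNT7B and NKD2, or the real spread between libraries. Shares within a family use TPM and an exact permutation test. Intervals of count ratios are exact (95%) and, like limits for 0 counts, cover counting error only. Positions and overlaps come from GENCODE 44 on GRCh38.

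The genes and lists were chosen with earlier results of these data known. Values in every library are given for members past the threshold and for CTNNB1, AXIN2, LEF1 and TCF7; of the other pathway genes, those past the threshold whose log2 fold change is 1 or more in size are named. Alternatives were other scaling factors, other filters, stricter thresholds, a block for replicate number, the omission of each library, DESeq2 1.42.0, and limma 3.58.1 on log2(TPM + 1) or log2(TPM + 0.1). No pair of libraries of a group agreed within sampling noise (chi-square per degree of freedom 13.5 to 56.1).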

Additional observations from a re-analysis of the deposited data

How the results depend on the processing

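Of the 17 members called, 10 kept their call and sign in all alternatives that tested them (WNT5A, WNT5B, FZD4, FZD7, FZD8, TCF7L1, LEF1, NKD2, DKK1 and SFRP1), 7 lost the call in at least 1 (WNT3, WNT7B, FZD1, FZD6, FZD9, LRP6 and ROR1), and 0 changed sign. WNT5B was tested in 12 of the 15 alternatives and NKD2 in 14, and both were over the filter on low counts in ALDH_High alone. Of the 22 not called, 5 passed somewhere (PORCN, DVL1, APC, TCF7L2 and NKD1). In limma on log2(TPM + 1) for all genes with a TPM above 0, the adjusted p was 0.0577 for WNT3, 0.0666 for WNT7B, 0.0960 for FZD1 and 0.0508 for LRP6; FZD9 missed the threshold in all 3 limma settings (0.0963 to 0.197) and with upper-quartile factors (0.0597). Another 4 changed sign. With upper-quartile factors the log2 fold change was -0.0249 for DVL2, -0.030 for DVL3 and -0.013 for DKK3. With single libraries left out it ran from -0.067 to 0.121 for DVL2, from -0.058 to 0.149 for DVL3, from -0.028 to 0.145 for DKK3 and from -0.344 to 0.00079 for FZD3.

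The replicate number as a block gave 12 members higher and 6 lower, all 17 and TCF7L2 (adjusted p 0.0480). Of the other pathway genes called, CTNNBL1 lost its call under the block (0.0694), and no other of them did. Other pathway genes not called before gained calls under the block. Their lower genes went from 7 to 9, and their higher genes stayed at 18 although CTNNBL1 was lost. Among the members the block changed no call but that of TCF7L2. The deviations from the group mean correlated at 0.15, 0.076 and 0.11 between libraries that share a number. As 1 value is under 0.1, no pairing was assumed, although each library correlated best with its own number.

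Members lower in ALDH_High fell from 6 to 3 in both limma settings restricted to a mean TPM of 1 or more. These settings used log2(TPM + 1) and log2(TPM + 0.1). There WNT7B, with a mean of 0.516 TPM, was under the limit and not tested, while FZD6 and ROR1 missed the threshold. Lower members fell to 2 on log2(TPM + 1) for all genes with a TPM above 0. There WNT3, WNT7B, FZD6 and ROR1 missed the threshold. Why these genes missed it was not tested. Asking for a log2 fold change of 1 or more in size left 3 members lower, by construction. Members higher were 15 without a filter, the most, and 8 at an adjusted p below 0.01. Among the other pathway genes, 4 were lower in limma on all genes with a TPM above 0 and 3 with the fold threshold; KREMEN2, BCL9L and CCND1 missed the threshold in all 3 limma settings, TRABD2B in 2, and KREMEN1, LGR6, TNIK and CELSR3 on all genes with a TPM above 0. Over all genes, 1838 were higher and 1675 lower; higher genes were 1155 in limma on all genes, 1060 at an adjusted p below 0.01 and 1004 with the fold threshold, and lower genes were 851, 870 and 954, and 1047 and 1051 in limma with pseudocounts 1 and 0.1.

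Without 1 library, members numbered 9 to 12 higher and 4 to 6 lower, other pathway genes 13 to 18 and 6 to 9, and all genes 1306 to 2172 and 1073 to 2049; the 1073 came without ALDH_High library 2. The median log2 fold change of the members was 0.27 without ALDH_Low library 1. As shares of CPM rather than TPM, WNT5A differed by -7.85 percentage points in place of -12.1, and FZD2 by -5.71 in place of -7.18. Leaving out a library gave -14.2 to -10.6 for WNT5A, -7.87 to -6.78 for FZD2 and -15.4 to -11.7 for TCF7L2.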
